A study of Mus musculus with 18 samples.

Results

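Ugt1a1, Ugt1a2, Ugt1a5, Ugt1a6a, Ugt1a6b and Ugt1a9 are UDP-glucuronosyltransferase genes of the mouse Ugt1 locus. These 6 genes, of 36528 in the count tables, were selected on their CPM (counts scaled to the total count of a sample) across the 6 groups of the same 18 samples. Their levels and changes are therefore given as a description with no test, and tests were used only for genes outside the family. All 6 passed the filter on low counts, with 341 reads or more in every sample. Gene expression was measured by RNASeq in primary C57BL/6 renal tubulointerstitial epithelial cells from a commercial supplier, referred to as RPTEC, with 3 samples in each group. Cells received vehicle (DMSO), TWEAK at 100 ng/mL, or TWEAK at 100 ng/mL with NIK SMI1 at 3 μM, and were collected after 6 h or 24 h. TWEAK is a TNF family cytokine, and NIK SMI1 is a small molecule inhibitor of the NF-κB-inducing kinase NIK. No group received NIK SMI1 without TWEAK. The labels do not say whether the 3 samples of a group came from separate animals or cultures, so p-values measure the spread between these samples, which may be technical.

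UDP-glucuronosyltransferases are membrane enzymes of the endoplasmic reticulum that attach glucuronic acid from UDP-glucuronate to bilirubin, hormones and drugs, which makes them water soluble for export. In the Ugt1 locus every gene has its own promoter and its own first exon, which encodes the part that binds the substrate. That exon is spliced to a common set of exons, which encodes the part that binds UDP-glucuronate. The kidney is a known site of glucuronidation. Ugt1a1 is the bilirubin conjugating enzyme, while Ugt1a6a, Ugt1a6b and Ugt1a9 conjugate phenols and drugs.

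The total count per sample lay between 18040966 and 51956444 reads (median 35374254), so that 3 reads correspond to 0.0577 to 0.166 CPM. All 7 renal epithelial markers had more than 3 reads in every sample and summed to 7244 to 9143 CPM. Nearly all of this sum was Krt18, Krt8, Cdh1 and Epcam, while Cdh16, Pax8 and Pax2 had group means of 19.2 to 50.4 CPM. Markers of the proximal tubule were scarce, with a sum of 10.3 to 14.8 CPM over 10 genes, 0 reads of Miox in all 18 samples, and Slc34a1 at 0 in every group except TWEAK at 24 h (mean of 0.0298 CPM). Of these 10 genes, 5 passed the filter on low counts (Lrp2, Cubn, Slc5a2, Slc5a12 and Gatm). Proximal tubule markers were thus present in part, at a summed level far below that of the general epithelial genes. Fibroblast markers summed to 12.9 to 19.2 CPM over 6 genes, and leukocyte markers to 11.4 to 14.5 CPM over 5 genes, nearly all of it Cd68. Hepatocyte, endothelial, intestinal and other nephron markers each summed to at most 1.33 CPM. TWEAK raised 5 of 6 pathway control genes at each time (edgeR quasi-likelihood test, Benjamini-Hochberg adjusted p below 0.05), among them Nfkb2, the p100 precursor of the non-canonical pathway, by a log2 fold change of 1.90 ± 0.04 (SE) at 6 h and 1.87 ± 0.04 at 24 h. Birc3, an inhibitor of apoptosis, rose by 2.48 ± 0.08 and 2.83 ± 0.08 on the same scale. Of 15521 tested genes, TWEAK raised 11.7% at 6 h and 18.3% at 24 h, and NIK SMI1 lowered 5.7% and 8.29%. NIK SMI1 lowered 5 of the 6 control genes at each time, and raised Tnfrsf12a, the TWEAK receptor, at 6 h by 0.13 ± 0.04 (edgeR adjusted p = 0.0269), a call lost without replicate 1 or 2 of either group (up to 0.23).

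The junctions below show why the genes of the locus cannot be read as separate measurements. Each line gives the last 30 bases of a gene's own exon in lower case and the first 30 bases of the shared exon 2 in capitals, on the plus strand of chromosome 1 (GRCm38, GENCODE M21).
Ugt1a9: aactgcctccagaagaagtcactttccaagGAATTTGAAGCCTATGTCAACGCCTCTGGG
Ugt1a7c: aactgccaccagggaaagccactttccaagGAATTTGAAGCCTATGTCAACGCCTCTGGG
Ugt1a6b: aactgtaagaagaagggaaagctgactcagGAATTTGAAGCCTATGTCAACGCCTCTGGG
Ugt1a6a: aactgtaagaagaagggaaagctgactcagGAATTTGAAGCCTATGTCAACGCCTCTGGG
Ugt1a5: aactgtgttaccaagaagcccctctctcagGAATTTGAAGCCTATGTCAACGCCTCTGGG
Ugt1a2: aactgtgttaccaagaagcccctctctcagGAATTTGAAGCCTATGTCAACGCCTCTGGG
Ugt1a1: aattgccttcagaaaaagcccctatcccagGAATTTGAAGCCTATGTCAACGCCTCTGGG
The capitals are the same bases in every line, since they come from 1 exon at chr1:88215044-88215175. The own 30 bases of Ugt1a6a and Ugt1a6b are identical to each other, and so are those of Ugt1a5 and Ugt1a2.

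The own exons lie upstream of this exon in the order Ugt1a9 (chr1:88070800-88071678), Ugt1a7c (chr1:88095064-88095978), Ugt1a6b (chr1:88106941-88107799), Ugt1a6a (chr1:88138473-88139331), Ugt1a5 (chr1:88166012-88166903), Ugt1a2 (chr1:88200601-88201500) and Ugt1a1 (chr1:88211959-88212871). Exon 2 is followed by the shared exons at chr1:88215795-88215882, chr1:88216138-88216357 and chr1:88218127-88218997. Ugt1a7c and Ugt1a10 are not among the 6 genes but belong to the same locus and have a row in the tables. These borders are those of GENCODE transcripts, while RefSeq (GRCm38.p6) places some starts elsewhere and ends the last exon at position 88220002 for every gene with a row in the tables except Ugt1a6b (88218998). With the RefSeq starts and ends and the GENCODE inner borders, the length of own plus shared exons equalled the exon length given in the tables for all 8 genes, 2293 bases for Ugt1a6b and 3206 to 3302 bases for Ugt1a1, Ugt1a2, Ugt1a5, Ugt1a6a, Ugt1a7c, Ugt1a9 and Ugt1a10. By these ends, the shared exons contributed 2316 bases to each model except that of Ugt1a6b, which holds 1312 of them.

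Within a sample, the counts of the 6 genes were nearly the same number. The highest and the lowest of them differed by 3 to 19 reads, or 0.573% to 1.88% of the lowest count. The difference was 3 reads in vehicle replicates 2 and 3 at 24 h, where 5 of the 6 genes had exactly 341 reads in the former and exactly 414 reads in the latter. In the deepest TWEAK library at 24 h, the 6 counts lay between 1949 and 1967 reads. Ugt1a5 and Ugt1a10 had identical counts in all samples but 1. The deposited RPKM values, which divide by exon length, separated the genes only by model length: in vehicle at 6 h, 5 of them had group means of 6.64 to 6.79 RPKM and Ugt1a6b, with its shorter model, had 9.48 RPKM.

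The reads of a gene that lie outside the shared exons were estimated as its count minus the lowest count of any Ugt1a gene in the sample. Summed over the 18 samples, these reads numbered 43 of 17861 for Ugt1a1, 126 of 17944 for Ugt1a2, 28 of 17846 for Ugt1a5, 137 of 17955 for Ugt1a6a, 3 of 17821 for Ugt1a6b and 37 of 17855 for Ugt1a9. Between 98.2% and 100.0% of the count of each of the 6 genes in each sample thus lay in shared exons. The exception in the locus was Ugt1a7c, with 11836 of 29654 reads outside the shared exons, 248 to 1227 reads per sample and 37.5% to 42.3% of its count. Of the 12237 reads outside the shared exons in all 8 genes, Ugt1a7c held 96.7% (94.3% to 98.8% in single samples), and the 6 genes together held 3.06% (1.19% to 5.00%). Reads across an exon junction may have been counted for every gene that shares the second exon, and such reads are then missing from these estimates.

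**Figure D1:**
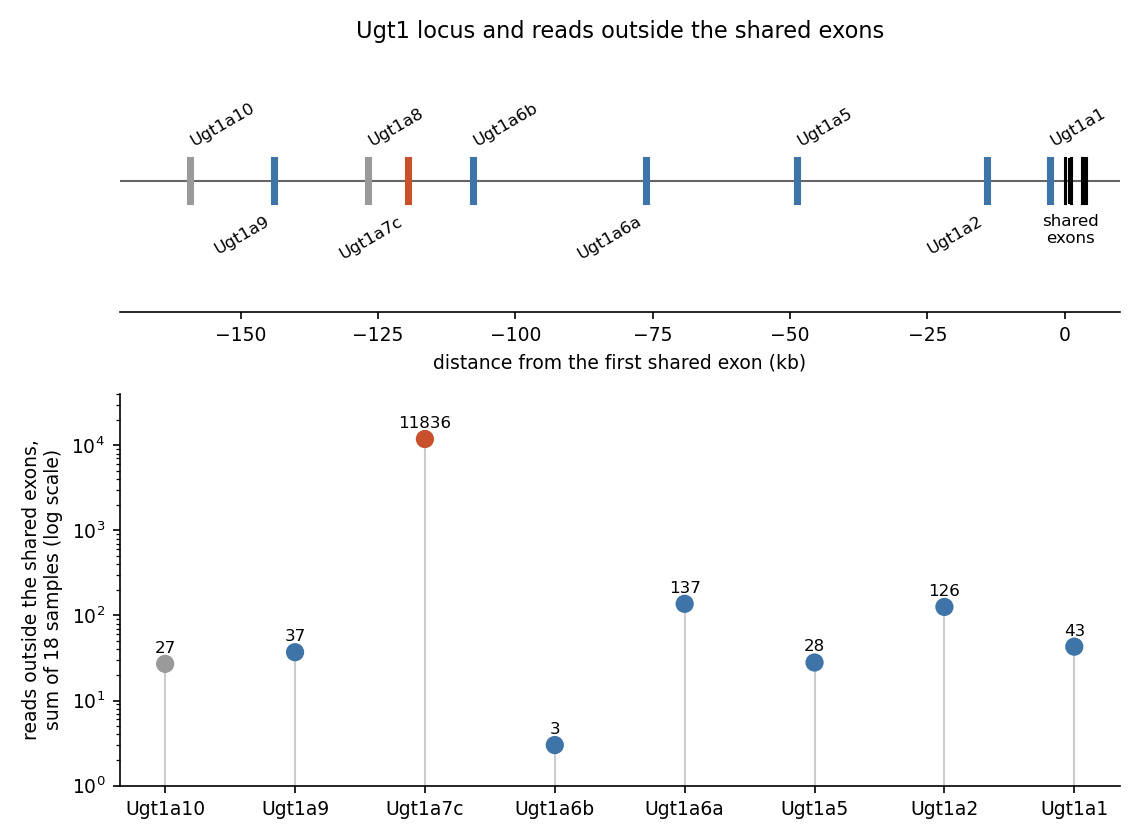
The upper panel draws the own exons and the shared exons (black) of the Ugt1 locus by distance from the first shared exon in kb, with the 6 selected genes in blue, Ugt1a7c in red and the others in grey. The lower panel gives, on a log scale, the reads outside the shared exons summed over 18 samples, which were 11836 for Ugt1a7c and at most 137 for each of the other genes.

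The own exons of most genes are distinct enough for uniquely aligned reads to be counted there. Of all windows of 50 bases in the own exon, 100.0% occurred in no other Ugt1a exon for Ugt1a1, 92.1% for Ugt1a2 and Ugt1a5, 93.4% for Ugt1a9 and 98.6% for Ugt1a7c. Ugt1a6a and Ugt1a6b are the exception. Their own exons were identical at 97.0% of aligned positions, and 52.6% of the windows of each were not found in the other, so that reads of these genes may be lost among the reads that align to more than 1 place. The own exon of Ugt1a8, which is in the reference but has no row in the tables, shared 8 windows with that of Ugt1a7c.

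Since the 6 counts are almost 1 measurement, Ugt1a6a, which had the highest mean CPM, is given sample by sample. With vehicle at 6 h, it had 22.4, 22.9 and 23.1 CPM, and TWEAK at 6 h gave 33.1, 30.5 and 30.3 CPM. TWEAK with NIK SMI1 at 6 h gave 26.1, 25.0 and 23.0 CPM. The TWEAK samples stood above all vehicle samples, and the samples with NIK SMI1 lay between them, with the lowest within the range of vehicle. At 24 h, the vehicle samples had 19.6, 17.5 and 20.2 CPM, and the TWEAK samples had 40.1, 41.8 and 42.9 CPM. TWEAK with NIK SMI1 at 24 h gave 29.8, 27.5 and 28.5 CPM. No samples of the 3 groups overlapped at 24 h. The other 5 genes had group means of 22.6 CPM with vehicle, 31.0 to 31.2 CPM with TWEAK and 24.4 to 24.5 CPM after addition of NIK SMI1 at 6 h. At 24 h, these means were 19.0 CPM, 41.5 to 42.0 CPM and 28.4 to 28.6 CPM in the same order.

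**Figure D2:**
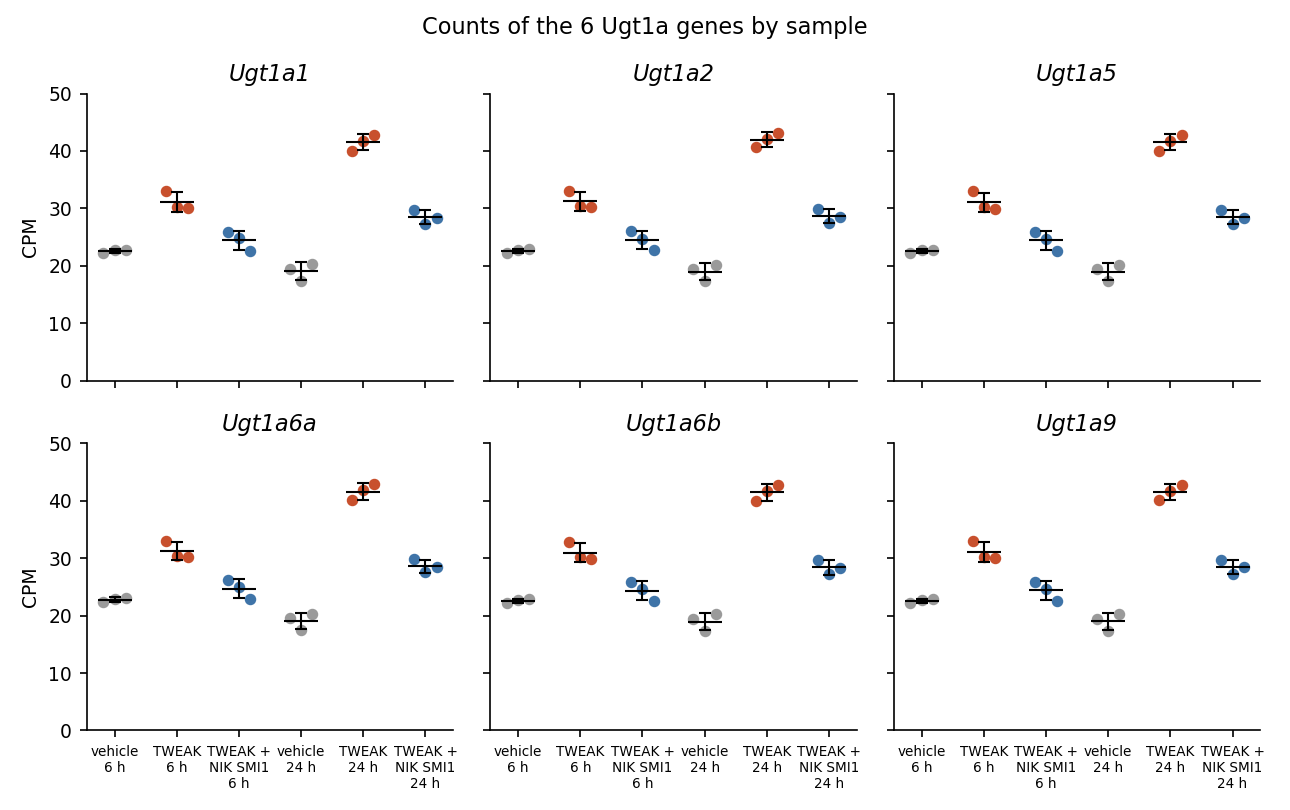
CPM of each of the 6 Ugt1a genes in every sample (points), with the mean and SD of the 3 samples of a group (lines); the 3 treatments at 6 h are followed by those at 24 h. The 6 panels are nearly the same because the genes share their counted exons, and the TWEAK samples at 24 h, at 39.9 to 43.2 CPM, lie above all others.

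In fold terms, the counts of all 6 genes were higher with TWEAK than with vehicle at 6 h without overlap of samples. The log2 fold changes were 0.47 to 0.48 (SE of 0.06), a 1.38-fold to 1.39-fold difference. Nearly all of these reads lie in shared exons. This change and those below are therefore 1 signal of the locus, which these counts cannot assign to any single gene of the 6. Among all 15521 tested genes, 11.7% were called higher in this comparison and 12.0% lower. After 24 h the 6 genes were 2.18-fold to 2.21-fold higher with TWEAK, by log2 fold changes of 1.12 to 1.14 (SE of 0.06), again without overlap, and 18.3% of tested genes were called higher and 20.7% lower. The log2 fold change at 24 h exceeded that at 6 h by 0.66 to 0.67 (SE of 0.08). The counts of the 6 genes were lower with NIK SMI1 than with TWEAK alone in all samples at both times. The log2 fold changes were -0.34 to -0.33 at 6 h, where 5.34% of tested genes were called higher and 5.7% lower. At 24 h they were -0.56 to -0.55, with 10.2% of tested genes called higher and 8.29% lower. As the selection of the genes used these samples and the genes share reads, nothing is read from these counts against the shares of all genes. In bulk samples, fewer cells of a type and less RNA per cell cannot be told apart.

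NIK SMI1 removed part of the TWEAK difference. On the linear CPM scale, 77.4% of the difference between TWEAK and vehicle in the count of Ugt1a6a was gone at 6 h and 57.8% at 24 h. That count lies almost wholly in shared exons, and the few own reads of Ugt1a6a, given below, overlapped between the groups. For the count of Ugt1a7c, which held most reads outside the shared exons, 84.2% was gone at 6 h and 55.8% at 24 h. Set against vehicle, the counts of the 6 genes were 0.13 higher on the log2 scale with TWEAK and NIK SMI1 at 6 h (SE of 0.06), with samples that overlapped. At 24 h these counts were 0.57 to 0.58 higher (SE of 0.06), with samples that did not overlap. Vehicle itself was lower at 24 h than at 6 h, by a log2 fold change of -0.32 to -0.31. The comparisons share the TWEAK and the vehicle samples and are not independent of each other.

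Reads of pancreatic islet genes moved with the groups at 24 h. The 6 islet markers summed to 11.6 to 23.9 CPM in the vehicle groups and in all groups at 6 h, to 0.214 to 11.2 CPM with TWEAK at 24 h, and to at most 0.065 CPM once NIK SMI1 was added at that time. Ppy had 0 reads in all samples. The TWEAK library at 24 h with the lowest islet sum, replicate 2, had 41.8 CPM of Ugt1a6a, between the 40.1 and 42.9 CPM of the other replicates. As the islet sums differed between whole groups at 24 h, they cannot be told apart from treatment, and a single library does not change this. The part of the islet reads in the levels at 24 h was not tested.

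Ugt1a7c was the gene whose own exon carried the reads of the locus. Reads in its first exon amounted to 16.04, 15.05 and 15.38 CPM with vehicle at 6 h, and to 20.1, 20.3 and 21.5 CPM with TWEAK. With NIK SMI1 added, they amounted to 16.2, 16.5 and 14.7 CPM, which overlapped vehicle. At 24 h, the values were 11.8, 12.6 and 12.1 CPM with vehicle, 26.9, 26.3 and 29.1 CPM with TWEAK, and 19.52, 19.95 and 18.78 CPM after TWEAK plus NIK SMI1. The 3 groups at 24 h did not overlap. The log2 ratios of group means, with SEs from the 3 samples, were 0.41 ± 0.04 for TWEAK against vehicle at 6 h and 1.17 ± 0.05 at 24 h, and -0.38 ± 0.06 and -0.50 ± 0.05 for NIK SMI1 against TWEAK. For the shared exons the same ratios were 0.46 ± 0.05, 1.13 ± 0.07, -0.35 ± 0.07 and -0.55 ± 0.05. First exon and shared exons thus differed by less than 0.05 on the log2 scale in each of these comparisons. Both come from the same libraries, so their errors are not independent, and the differences were not tested. The first exon and the shared exons stood further apart in vehicle at 24 h against 6 h (-0.35 ± 0.04 and -0.25 ± 0.07). This also held for TWEAK with NIK SMI1 against vehicle, at 6 h (0.03 ± 0.06 and 0.11 ± 0.06) and at 24 h (0.68 ± 0.04 and 0.58 ± 0.08). Per base, the first exon of Ugt1a7c had 0.893 ± 0.055 times (SD, n = 18) the read density of the shared exons counted for Ugt1a6b, with group means from 0.865 to 0.921.

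**Figure D3:**
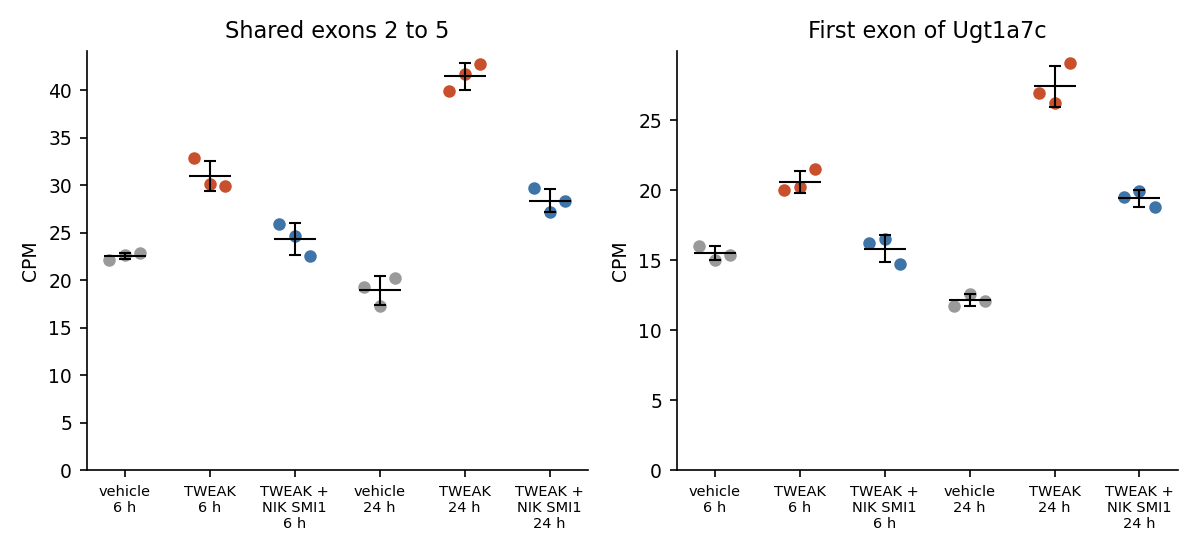
CPM in the shared exons (left) and in the first exon of Ugt1a7c (right) in every sample (points), with the mean and SD of 3 samples (lines). Both panels have the same order of groups, from 12.2 CPM with vehicle to 27.4 CPM with TWEAK at 24 h in the first exon and from 19.0 to 41.5 CPM in the shared exons.

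Reads in the own exons of the 6 genes were few, and only those of Ugt1a2 and Ugt1a6a reached 10 in any sample. Ugt1a2 had 1, 2 and 1 such reads with vehicle at 6 h, 9, 11 and 9 with TWEAK, and 4, 1 and 3 with NIK SMI1 added to TWEAK. At 24 h, it had 4, 0 and 0 reads with vehicle, 17, 18 and 19 with TWEAK, and 12, 10 and 5 with TWEAK and NIK SMI1. The TWEAK samples were the highest at each time and did not overlap the other samples of that time. Because the model of Ugt1a6b lacks 1004 bases of the last exon, a few of these reads may lie there. Against the count of Ugt1a5 in place of the lowest, Ugt1a2 had 14, 17 and 16 reads with TWEAK at 24 h, 2, 0 and 0 with vehicle, and 10, 7 and 3 after NIK SMI1 was added. At 6 h against Ugt1a5, TWEAK gave 4, 11 and 7 reads, vehicle 0, 1 and 1, and NIK SMI1 3, 0 and 2.

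Ugt1a6a showed no such order. It had 5, 9 and 13 own reads with vehicle and 8, 14 and 13 with TWEAK at 6 h, and 11, 3 and 0 with vehicle and 3, 6 and 6 with TWEAK at 24 h. With TWEAK and NIK SMI1 there were 9, 9 and 7 reads at 6 h and 5, 12 and 4 at 24 h. These ranges overlapped at both times. Own reads of Ugt1a1 numbered 0 to 7 per sample, those of Ugt1a9 0 to 8, those of Ugt1a5 0 to 5 and those of Ugt1a6b 0 to 2. Because the lowest count is subtracted, at least 1 gene is at 0 in every sample by construction, which was mostly Ugt1a6b with its shorter model, and these values give no measure of own reads that are absent.

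**Figure D4:**
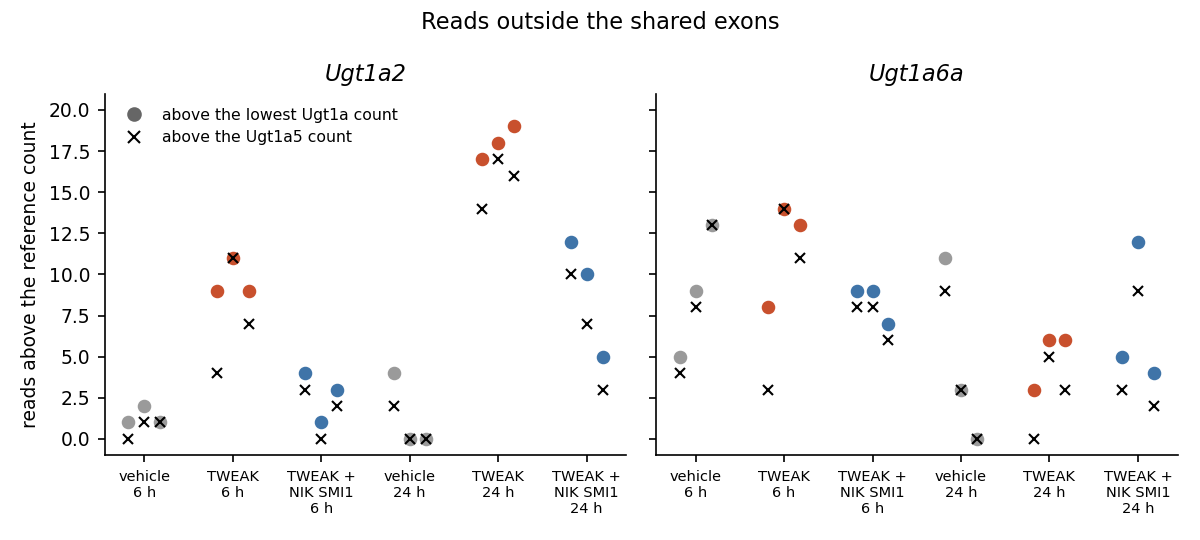
Reads outside the shared exons of Ugt1a2 (left) and Ugt1a6a (right) in every sample, as reads above the lowest Ugt1a count (circles) or above the count of Ugt1a5 (crosses). Ugt1a2 reaches 17 to 19 reads in the TWEAK samples at 24 h, while the groups of Ugt1a6a overlap.

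The promoters of the 3 genes with the most own reads, Ugt1a7c, Ugt1a2 and Ugt1a6a, are shown because transcripts of the locus start at separate promoters (RefSeq, GRCm38.p6, 250 bases before to 50 bases after the start, plus strand, at chr1:88094751-88095050, chr1:88200361-88200660 and chr1:88134559-88134858). Capitals mark matches on either strand to 3 motifs: GCGTG of the AhR, TGACNNNGC of NRF2 and GGGNNNNNCC of NF-κB.
Ugt1a7c: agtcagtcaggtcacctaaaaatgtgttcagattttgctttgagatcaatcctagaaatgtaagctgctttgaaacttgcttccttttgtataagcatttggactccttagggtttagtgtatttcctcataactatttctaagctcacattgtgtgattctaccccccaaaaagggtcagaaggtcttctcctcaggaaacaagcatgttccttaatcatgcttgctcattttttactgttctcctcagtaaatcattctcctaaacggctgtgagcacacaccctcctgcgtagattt
Ugt1a2: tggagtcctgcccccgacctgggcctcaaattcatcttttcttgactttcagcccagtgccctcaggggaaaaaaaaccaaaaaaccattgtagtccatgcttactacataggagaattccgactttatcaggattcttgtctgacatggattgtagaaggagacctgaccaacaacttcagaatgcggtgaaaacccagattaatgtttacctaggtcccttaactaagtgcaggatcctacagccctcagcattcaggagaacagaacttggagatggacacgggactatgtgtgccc
Ugt1a6a: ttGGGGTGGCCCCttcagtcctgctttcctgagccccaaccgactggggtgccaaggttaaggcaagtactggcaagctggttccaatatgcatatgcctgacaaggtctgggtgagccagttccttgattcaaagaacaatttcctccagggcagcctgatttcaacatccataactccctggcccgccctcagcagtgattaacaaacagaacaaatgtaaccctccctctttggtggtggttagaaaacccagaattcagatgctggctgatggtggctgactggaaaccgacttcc
Neither the Ugt1a7c nor the Ugt1a2 window held any of the 3 motifs. The Ugt1a6a window held 2 overlapping NF-κB matches at positions -248 and -247 from the start. Of the other selected genes, Ugt1a1 and Ugt1a9 held no match, Ugt1a6b had no entry, and Ugt1a5 had an AhR match at -49 and an NF-κB match at -63. Among 32851 promoter windows of the same length, 32.4% held GCGTG, 12.4% TGACNNNGC and 50.8% GGGNNNNNCC. A match is a match of letters, and the windows say nothing of binding in these cells.

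Several genes that make and deliver the sugar donor fell with TWEAK. Of 6 tested genes of UDP-glucuronate supply, TWEAK lowered 4 and raised 0 at each time, and the median log2 fold change of the list was -0.13 at 6 h and -0.16 at 24 h, beside -0.003 and -0.006 for all tested genes. NIK SMI1 raised 1 of the 6 at 6 h and 2 at 24 h, and lowered 0. Of all tested genes, TWEAK lowered 12.0% at 6 h and 20.7% at 24 h, and raised 11.7% and 18.3%. NIK SMI1 raised 5.34% of all tested genes at 6 h and 10.2% at 24 h, and lowered 5.7% and 8.29%. Ugdh, which oxidizes UDP-glucose to UDP-glucuronate, was at 117 ± 2.59 CPM (SD, n = 3) with vehicle and 83.3 ± 2.45 CPM with TWEAK at 6 h, and at 130 ± 6.58 and 90.5 ± 1.23 CPM at 24 h. Its log2 fold changes were -0.48 ± 0.04 (SE, edgeR adjusted p = 5.25e-10) and -0.52 ± 0.04 (adjusted p = 8.91e-11). NIK SMI1 raised Ugdh by 0.21 ± 0.04 at 6 h (adjusted p = 0.00097, edgeR) and by 0.22 ± 0.04 at 24 h (adjusted p = 0.000249). Slc35d1, which carries UDP-glucuronate into the endoplasmic reticulum, fell by 0.30 ± 0.06 and 0.47 ± 0.07 on the log2 scale with TWEAK. With NIK SMI1, Slc35d1 rose at 24 h by 0.24 ± 0.06 (edgeR adjusted p = 0.0104), a call that was lost without TWEAK replicate 1 at 24 h (adjusted p = 0.0662). Ugp2, which makes UDP-glucose, fell at 24 h by 0.22, and Pgm1 fell at 6 h by 0.12 (edgeR adjusted p = 0.0452), a call that was lost in 12 of 23 alternatives. The call of Pgm2 at 24 h (log2 fold change of -0.11, edgeR adjusted p = 0.0245) was lost in 5 of 23 alternatives (up to 0.103). Gusb, the lysosomal enzyme that cleaves glucuronides, was not called in any comparison (log2 fold changes of -0.07 to 0.03).

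Regulators and companion targets that are textbook partners of Ugt1a genes were read from lists chosen with earlier results of these data known. Of all tested genes, TWEAK raised 11.7% and lowered 12.0% at 6 h, and raised 18.3% and lowered 20.7% at 24 h. For NIK SMI1 these shares were 5.34% and 5.7% at 6 h, and 10.2% and 8.29% at 24 h. Of 7 tested AhR pathway genes, TWEAK changed 0 at 6 h and 1 at 24 h, Nqo1, which reduces quinones, with -0.62 ± 0.20 on the log2 scale (edgeR adjusted p = 0.0178, but up to 0.123 without vehicle replicate 2 or TWEAK replicate 2 at 24 h). Cyp1a1, Cyp1a2 and Ahrr were too low to test, and NIK SMI1 changed 0 of the 7 at either time. Of 10 NRF2 pathway genes, 2 rose and 4 fell with TWEAK at 6 h, and 3 rose and 4 fell at 24 h. Gclc, the catalytic subunit for glutathione synthesis, fell by 0.41 ± 0.04 and 0.83 ± 0.04, and its partner Gclm by 0.38 ± 0.04 and 0.44 ± 0.04. Slc7a11, the cystine importer, rose by 0.58 ± 0.07 and 1.02 ± 0.08. Hmox1, which opens the heme ring on the way to bilirubin, rose with TWEAK at 24 h alone, by 0.42 ± 0.05 (at 6 h the log2 fold change was 0.06 ± 0.05). NIK SMI1 raised 5 and lowered 1 of the NRF2 genes at 6 h, and raised 2 and lowered 4 at 24 h. Of 6 tested genes of nuclear receptors and related factors, TWEAK raised 2 and lowered 2 at each time. Nr3c1, the glucocorticoid receptor, fell by 0.20 ± 0.06 and 0.39 ± 0.06, where the call at 6 h was lost without vehicle replicate 1 at 6 h (edgeR adjusted p = 0.0554). NIK SMI1 changed 0 of these at 6 h, and raised 1 and lowered 1 at 24 h. Nr1i2 and Hnf4a were too low to test. Of 3 tested CAR and PXR targets, TWEAK raised 1 and lowered 1 at 6 h, and raised 2 and lowered 1 at 24 h, and Por, the electron donor of cytochromes P450, fell by 0.31 ± 0.04 and 0.63 ± 0.04. NIK SMI1 raised 1 and lowered 1 of them at 6 h, and raised 1 and lowered 0 at 24 h.

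**Figure D5:**
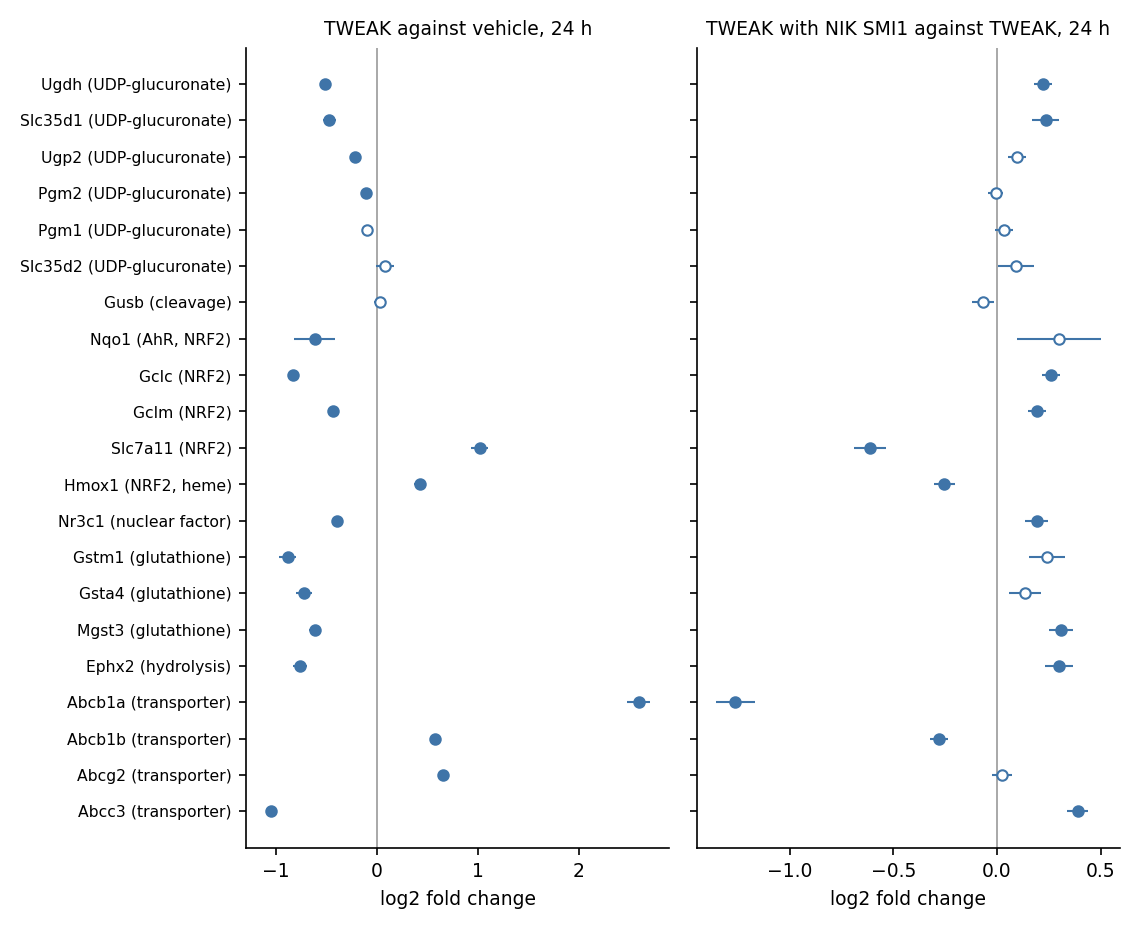
Log2 fold changes with SE of 21 genes around glucuronidation at 24 h, for TWEAK against vehicle (left) and TWEAK with NIK SMI1 against TWEAK (right). Filled circles passed the edgeR test at an adjusted p below 0.05 and open circles did not; Ugdh and Slc35d1 are lower with TWEAK and higher with NIK SMI1, and the transporter Abcb1a has the opposite signs.

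Many glutathione transferases fell with TWEAK at 24 h, and sulfation genes moved both ways. Of 14 tested glutathione transferases, TWEAK lowered 2 at 6 h and 11 at 24 h and raised 0. Their median log2 fold change at 24 h was -0.56. Beside these and the lists below, TWEAK lowered 12.0% of all tested genes at 6 h and 20.7% at 24 h, and raised 11.7% and 18.3%. The shares lowered by NIK SMI1 were 5.7% and 8.29%, and those raised 5.34% and 10.2%. Gstm1, Gsta4 and Mgst3 fell at 24 h by 0.88 ± 0.09, 0.72 ± 0.08 and 0.62 ± 0.06. NIK SMI1 raised 2 of the 14 at 6 h and 3 at 24 h, among them Mgst3 by 0.31 ± 0.06 at 24 h. Of 13 genes of the other UGT families, Ugt2b34 alone was high enough to test, with a mean of at most 0.522 CPM, and its log2 fold change at 24 h was -1.56 ± 0.46 (edgeR adjusted p = 0.00846, and 0.0659 without TWEAK replicate 3 at 24 h). Of 3 sulfation genes, TWEAK raised 2 and lowered 1 at 6 h, and raised 1 and lowered 1 at 24 h. Sult2b1, a sulfotransferase, rose with TWEAK by 0.21 ± 0.06 at 6 h and by 0.28 ± 0.07 at 24 h on the log2 scale, and fell with NIK SMI1 by 0.35 ± 0.06 at 24 h. Its call at 6 h was lost without vehicle replicate 3 (edgeR adjusted p = 0.0766). NIK SMI1 lowered 1 of the 3 at 6 h, and raised 1 and lowered 2 at 24 h. Of 5 genes of other conjugation and hydrolysis, 2 fell with TWEAK at 24 h and 0 changed at 6 h. Ephx2, the soluble epoxide hydrolase, fell by 0.76 ± 0.07 at 24 h, and NIK SMI1 raised 2 of these 5 at 24 h and 0 at 6 h. Of 4 genes from heme to bilirubin, TWEAK lowered 2 at 6 h and raised 2 and lowered 1 at 24 h, while NIK SMI1 raised 1 at 6 h and lowered 1 at 24 h.

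Several export pumps rose with TWEAK. Of 8 tested transporters of drugs, organic anions and conjugates, TWEAK raised 5 and lowered 2 at each time. NIK SMI1 raised 1 and lowered 4 at 6 h, and raised 2 and lowered 4 at 24 h. Of all tested genes, TWEAK raised 11.7% and lowered 12.0% at 6 h, and raised 18.3% and lowered 20.7% at 24 h. For NIK SMI1 these shares were 5.34% and 5.7% at 6 h, and 10.2% and 8.29% at 24 h. Abcb1a, the P-glycoprotein pump, rose from 5.92 ± 0.304 to 21.9 ± 1.65 CPM at 6 h and from 3.30 ± 0.699 to 20.7 ± 0.825 CPM at 24 h. NIK SMI1 lowered it to 12.3 ± 0.621 and 8.69 ± 1.24 CPM. Abcb1b rose by 1.18 ± 0.04 on the log2 scale at 6 h and by 0.57 ± 0.04 at 24 h, and Abcg2, the breast cancer resistance protein, by 0.73 ± 0.05 and 0.66 ± 0.05. Abcc3, which exports glucuronides, went against them and fell by 0.31 ± 0.05 at 6 h and by 1.05 ± 0.05 at 24 h, from 63.8 ± 1.49 to 30.8 ± 1.21 CPM. NIK SMI1 raised Abcc3 at 24 h by 0.39 ± 0.05 (edgeR adjusted p = 1e-06). Over all tested genes, the TWEAK effect differed between 24 h and 6 h in 8.91% and the NIK SMI1 effect in 4.73%.

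The genes that flank the locus were compared to see whether its neighbourhood changed as a whole. Before the locus lie Gm19582, Dgkd and Usp40, and after it Mroh2a, Hjurp and Trpm8. Dgkd, a diacylglycerol kinase, rose with TWEAK by 0.11 ± 0.03 and 0.16 ± 0.03 on the log2 scale at 6 h and 24 h, and NIK SMI1 lowered it by log2 fold changes of -0.11 ± 0.03 and -0.15 ± 0.03. These changes were smaller than those of the Ugt1a counts, and both calls at 6 h were lost when single libraries were left out. For TWEAK these were replicates 2 and 3 of vehicle and of TWEAK (edgeR adjusted p of up to 0.0835), and for NIK SMI1 they were replicates 2 and 3 of TWEAK and each replicate with NIK SMI1 (up to 0.119). Hjurp, a centromere histone chaperone, fell by 0.14 ± 0.05 on that scale at 24 h under TWEAK (edgeR adjusted p = 0.0163, and up to 0.0684 without vehicle replicate 2 or TWEAK replicate 1 at 24 h). Usp40, Gm19582 and Mroh2a were not called in any of the 4 comparisons. Dnajb3, which lies inside the locus, had at most 10 reads and Trpm8 at most 2, too few for a test.

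Over the 18 samples, the 6 genes correlated with Ugt1a6a at a Pearson r of at least 0.9998 on the log2(CPM + 0.5) scale, as follows from their shared reads. Outside the locus, the 5 tested genes most like Ugt1a6a included Kdm1a (r = 0.984), a histone demethylase, Mmp9 (0.984), a matrix protease, Tcim (0.984) and Nkain1 (0.972). The same 5 genes were the most like Ugt1a1. These are descriptions over samples that fall into 6 groups of treatment and time, which every gene that follows the groups shares. They differed in size of change: at 24 h Kdm1a went from 101.4 CPM with vehicle to 121.6 CPM with TWEAK and Mmp9 from 1.88 to 61.1 CPM. By rank correlation, Il18rap and Il18r1, which encode interleukin-18 receptor chains, came first (rho of 0.977 each), and of the genes named before Tcim alone stayed among the first 5.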

How the data were processed

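Reads of 18 RNASeq libraries were aligned by the authors to the mouse genome (NCBI build 37), and the authors deposited raw counts, the uniquely aligned reads in the exons of each gene. The same files hold deposited RPKM values by the authors, scaled by exon length and total reads, which entered no test. How a read that overlaps several genes was counted is not given in the sources used here. It was checked that the deposited exon lengths of 8 Ugt1a genes equal exon models from GENCODE inner borders with RefSeq starts and ends. Symbols matched 31049 of 36528 identifiers (85.0%). CPM are counts scaled to the total count of a sample. Genes with more than 10 reads in at least 4 samples (15521) entered 1 fit of all 6 groups with edgeR 4.0.16 (R 4.3.3, TMM, glmQLFit, glmQLFTest, Benjamini-Hochberg adjustment at 0.05), where the common biological coefficient of variation was 0.0404. SEs came from the F statistic. Own-exon reads are a gene's count minus the lowest Ugt1a count of the sample. Positions come from GENCODE M21 on GRCm38, and none was converted between builds. The labels give no replicate numbers, so numbers 1 to 3 only name samples.

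The Ugt1a genes and the gene lists were chosen with earlier results of these data known. All genes of the locus were named, with up to 3 neighbours on each side and the 5 genes most like Ugt1a6a and Ugt1a1. From each list, up to 4 called genes with the largest changes in a comparison could be named, and any gene of the lists on UDP-glucuronate supply, glucuronide cleavage, heme, AhR, NRF2, nuclear receptors and the TWEAK control. Alternatives were DESeq2 1.42.0, its size factors in edgeR, no filter, filterByExpr, each time point alone, leaving out each sample, TMM-scaled CPM, another gene subtracted for own-exon reads, and Spearman correlation or a pseudocount of 0.1 in place of 0.5 for likeness. Single genes and a motif that the rules would have named are not reported here. On simulated data for TWEAK against vehicle at 24 h (15415 genes, 200 changed), 100% of changes of 1 and of 2 on the log2 scale were recovered with 11 false calls. Changes below 1, as for many genes named here, were not simulated, so their recovery is not known.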

Additional observations from a re-analysis of the deposited data

Results flagged for a closer look

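For several named genes the effect at 24 h differed from that at 6 h in edgeR's interaction test (adjusted p below 0.05), and no explanation was weighed. The Ugt1a genes were not tested in this way. The differences of the TWEAK effect, as log2 fold change at 24 h minus that at 6 h, were -0.42 for Gclc, 0.36 for Hmox1, 0.44 for Slc7a11, -0.32 for Por, -0.78 for Gstm1, -0.56 for Gsta4, -0.46 for Mgst3 and -0.60 for Ephx2. Among the transporters they were 0.70 for Abcb1a, -0.60 for Abcb1b and -0.74 for Abcc3. The neighbour Hjurp had a difference of -0.22 (adjusted p = 0.0317), which was lost in 7 of 22 alternatives. For NIK SMI1 against TWEAK, the same difference was -0.51 for Hmox1, which rose by 0.26 at 6 h and fell by 0.26 at 24 h. It was 0.31 for Abcb1b, 0.39 for Abcg2 and 0.27 for Abcc3. This call for Abcc3 was lost in 3 of 22 alternatives, without replicate 1 of TWEAK with NIK SMI1 at 6 h, TWEAK replicate 2 at 24 h or replicate 2 of TWEAK with NIK SMI1 at 24 h. Birc3 had -0.40, which was lost without the last of these libraries (adjusted p = 0.057).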

How the results depend on the processing

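The log2 fold changes of the 6 Ugt1a genes moved by less than the spread between replicates in all 960 recomputed values. These values are not separate checks, since the 6 genes share their reads and most left-out samples lay outside the comparison. Leaving out 1 of 3 samples also moves a group mean by only part of that sample's deviation, so a small move says little. Other values moved by more: 6 of 36 CPM means with TMM scaling, 23 of 144 own-exon values, all with Ugt1a5 subtracted, and 7 of 20 likeness values, all by Spearman correlation. Over other tools, filters and scalings they ranged from 0.46 to 0.48 for TWEAK at 6 h, 1.12 to 1.15 at 24 h, -0.35 to -0.33 for NIK SMI1 against TWEAK at 6 h and -0.57 to -0.54 at 24 h, and leaving out single samples gave 0.43 to 0.50, 1.07 to 1.18, -0.40 to -0.29 and -0.59 to -0.52. Leaving out each sample in turn moved the number of genes called higher with NIK SMI1 at 6 h between 489 and 914 (829 with all samples; 489 without TWEAK replicate 1 at 6 h and 513 without replicate 2 of TWEAK with NIK SMI1 at 6 h), and the number with a different NIK SMI1 effect at 24 h between 388 and 1086 (734 with all samples). The low counts there came without replicate 2 of TWEAK with NIK SMI1 at 6 h (388), replicate 3 of that treatment at 24 h (401), TWEAK replicate 1 at 6 h (426) and TWEAK replicate 2 at 24 h (483). All other counts stayed within 1.5 times, and the cause was not tested. Of 2668 recomputed values of named genes outside the locus, 55 lost a call, 17 gained one and 0 reversed. Subtracting Ugt1a5, an alternative chosen after seeing the data, gave own reads that summed to 98 for Ugt1a2 and 109 for Ugt1a6a. No paired analysis was possible because the labels give no replicate numbers. Own-exon reads of the 6 genes are differences between nearly equal counts and are limited by depth and by the gene subtracted.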
